A study of Mus musculus with 6 samples.

Results

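Mitochondria make ATP through 4 respiratory complexes and the ATP synthase, and the genes that encode these machines in the nucleus are described here in mesenchymal stem cells from adipose tissue (AD-MSCs) sorted on CD73. A gene was taken when its symbol in the platform annotation started with Nduf or Uqcr, was Sdha, Sdhb, Sdhc or Sdhd, started with Cox4, Cox5, Cox6, Cox7 or Cox8, or started with Atp5, and when a probe set was annotated to it alone. In all, 90 of the 18193 genes on the arrays met this rule, through 179 probe sets, and 51 of them had more than 1 probe set. Each gene was read from its brightest probe set, and its other probe sets are given where they differ. The 90 genes comprised 36 complex I subunits, 8 complex I assembly factors named Ndufaf, 4 subunits of complex II, 8 of complex III, 17 of complex IV and 17 of the ATP synthase.

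The samples were CD73+ AD-MSCs, on 3 Affymetrix mouse arrays, and CD73- AD-MSCs, on 3 arrays. Both kinds of cell came from the groin fat of adult C57BL/6 mice, were separated by flow cytometry and were grown in low-sugar DMEM with serum, and the labels name no engineered allele, drug or further treatment. RNA was taken at the fifth passage of the sorted cells, so the arrays describe expanded cultures and not freshly isolated cells. Separate cultures are not named in the labels for the 3 arrays of either group, and p-values therefore measure only the spread between arrays, which may be technical. All levels are the deposited log2 values, and all differences are CD73+ minus CD73- on the log2 scale. Levels of different probe sets serve only to call them bright or dim. They are not read as amounts of transcript, since probes differ in how well they bind. In such bulk RNA, fewer cells of a type and less RNA per cell cannot be told apart.

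Complex I takes electrons from NADH and complex II takes them from succinate, and both pass them to ubiquinone. Complex III moves them on to cytochrome c, complex IV gives them to oxygen, and the protons pumped along the way turn the ATP synthase. Each complex has a catalytic core, and complexes I, III and IV and the ATP synthase add small accessory subunits. The same complexes also contain subunits encoded in mitochondrial DNA, so nuclear and mitochondrial genes both contribute.

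Nt5e, the gene of CD73, was read first, as a check of the labels. Its brightest probe set read 7.84, 7.60 and 7.74 in CD73+ AD-MSCs, against 7.29, 6.39 and 6.84 in CD73- AD-MSCs. The CD73+ arrays all lay above the CD73- arrays (difference 0.88, SE 0.204, limma adjusted p = 0.0218). Its other probe sets, near or below the median level of the arrays, gave 0.03 and -0.12 (limma adjusted p = 0.798 and 0.546). Of 9 stromal markers, 6 rose, and their mean level per array was 10.29 to 10.31 in CD73+ AD-MSCs and 9.83 to 9.86 in CD73- AD-MSCs. Of 8 leukocyte markers 5 were below the median probe set and 2 rose (Cd14 by 0.50, Csf1r by 0.49), while Ptprc, the defining one, read 2.99 to 3.15 in CD73+ and 3.09 to 3.34 in CD73- AD-MSCs, and their mean level per array was 4.83 to 4.90 in CD73+ and 4.65 to 4.73 in CD73- AD-MSCs. Of 6 adipocyte and 7 endothelial markers 6 each were below the median probe set and 0 were called by limma, with 0 unadjusted p-values under 0.05 and 0 calls by the methods' t-test. Of 7 skeletal muscle markers 5 were below it and 1 rose, and of 5 mesothelial markers 5 were below it and 1 rose. Technical readings moved with the groups as well. The poly-A controls, bacterial transcripts added to each RNA sample, gave a mean difference of -0.95, the hybridisation controls -0.23 and the probe sets for 18S ribosomal RNA -0.56. The beta-actin probe sets at the end of the transcript exceeded those at its start by 0.0837 ± 0.0145 in CD73+ and 0.194 ± 0.0276 in CD73- AD-MSCs (SD, n = 3 arrays each), whereas the same quantity for Gapdh was -0.274 ± 0.035 in CD73+ cells and -0.299 ± 0.0228 in CD73- cells. The part of these shifts in the results below was not tested.

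More genes of the respiratory chain and ATP synthase were higher than lower in CD73+ AD-MSCs, and the shifts were small. At a limma adjusted p under 0.05, 17 of the 90 genes rose and 3 fell, and 70 did not pass. The 17 were 18.9% of the members, against 10.1% of all genes, and the 3 were 3.33%, against 12.6% of all genes. The median difference was 0.07 over the 90 genes, with a range from -0.46 to 0.84, and -0.02 over all genes. Every CD73+ array lay above every CD73- array for 43 members (47.8%), against 18.1% of all genes, and below for 18 members (20%), against 22.7% of all genes. These genes are bright, with a median level of 10.42 against 6.37 over all genes, and bright probe sets spread less: the median SD within a group was 0.0429 for the members and 0.0875 for all genes. Groups that spread less are more easily apart, and the share with the groups apart was not counted among bright genes. Among genes with a mean level of at least 9, a limit set after the data were seen, 15 of 72 members rose (20.8%, against 17.7% of such genes) and 1 fell (1.39%, against 25.1%). In this fit the share that rose was near that of genes above the same limit, and the share that fell was below it, though the median level of these members, 10.83, was above that of all such genes, 10.00. Of the 179 member probe sets, 35 rose (19.6%, against 9.79% of all probe sets) and 8 fell (4.47%, against 9.11%).

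The directions are relative to the bulk of the arrays. Scaled to the poly-A controls, the median over all probe sets moved to 0.93 and that of the members to 0.998, and all 90 members, the 3 that fell included, became higher. With a prior that follows the brightness of the probe sets, 32 members rose (35.6%, against 13.3% of all genes under that prior) and 14 fell (15.6%, against 16.8%). The share that fell was then near that of all genes. The members are brighter than most genes, however, and shares among bright genes were not counted under this prior. Leaving out single arrays left 7 to 13 members higher, with 7 without CD73+ replicate 1, 11 each without CD73+ replicate 2 or without replicate 1 or 2 of the CD73- arrays, and 13 each without the others, and 2 to 3 lower. The 9 genes called under every such omission were Uqcrh, Uqcr11, Ndufa4, Atp5k, Atp5l, Atp5e and Cox7a2, which were higher, and Cox6a2 and Ndufaf4, which were lower. The plot of differences by complex shows where they lie among the rest.

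**Figure D1:**
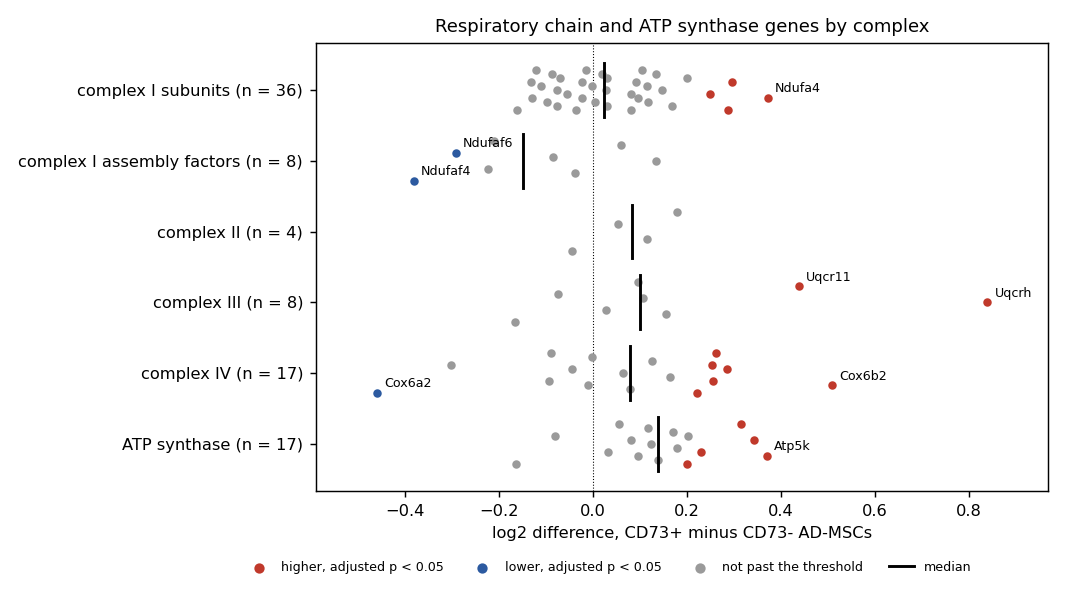
Log2 difference (x axis, CD73+ minus CD73- AD-MSCs) of each of the 90 genes, read from its brightest probe set, in 1 row per complex. Genes called higher at a limma adjusted p under 0.05 are red, those called lower blue and the others grey, and black bars are the medians, which range from -0.15 for the complex I assembly factors to 0.14 for the ATP synthase.

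The promoter windows of 5 of these genes are printed because their transcripts had the largest differences that held without any single array in complex III (Uqcrh, Uqcr11), the ATP synthase (Atp5k), the Nduf subunits (Ndufa4) and the assembly factors (Ndufaf4). Each runs 5′ to 3′ on the gene's strand, from 250 bases before the annotated start site, over 300 bases, and comes from RefSeq on GRCm38.p6. The windows are chr4:116075021-116075320 on the minus strand for Uqcrh, chr10:80406772-80407071 on the minus strand for Uqcr11, chr5:108434350-108434649 on the minus strand for Atp5k, chr6:11907401-11907700 on the minus strand for Ndufa4 and chr4:24897833-24898132 on the plus strand for Ndufaf4. Capitals mark exact matches, on either strand, to any of the 5 motifs named after the sequences.
Uqcrh: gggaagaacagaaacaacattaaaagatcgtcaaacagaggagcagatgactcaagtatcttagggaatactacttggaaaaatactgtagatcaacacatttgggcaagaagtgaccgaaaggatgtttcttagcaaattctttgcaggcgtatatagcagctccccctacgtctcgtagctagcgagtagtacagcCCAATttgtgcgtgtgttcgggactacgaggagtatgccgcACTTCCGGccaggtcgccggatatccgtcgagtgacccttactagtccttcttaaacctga
Uqcr11: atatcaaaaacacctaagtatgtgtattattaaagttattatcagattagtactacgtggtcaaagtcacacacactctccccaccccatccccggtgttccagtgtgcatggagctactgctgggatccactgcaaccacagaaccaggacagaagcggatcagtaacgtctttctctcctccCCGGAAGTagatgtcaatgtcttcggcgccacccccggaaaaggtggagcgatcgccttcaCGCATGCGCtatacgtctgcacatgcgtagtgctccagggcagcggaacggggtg
Atp5k: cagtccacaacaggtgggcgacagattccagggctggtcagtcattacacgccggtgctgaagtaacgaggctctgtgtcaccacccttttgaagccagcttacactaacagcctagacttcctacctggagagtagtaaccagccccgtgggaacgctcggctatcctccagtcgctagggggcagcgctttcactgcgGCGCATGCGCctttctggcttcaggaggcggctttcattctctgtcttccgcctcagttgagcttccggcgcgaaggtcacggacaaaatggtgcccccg
Ndufa4: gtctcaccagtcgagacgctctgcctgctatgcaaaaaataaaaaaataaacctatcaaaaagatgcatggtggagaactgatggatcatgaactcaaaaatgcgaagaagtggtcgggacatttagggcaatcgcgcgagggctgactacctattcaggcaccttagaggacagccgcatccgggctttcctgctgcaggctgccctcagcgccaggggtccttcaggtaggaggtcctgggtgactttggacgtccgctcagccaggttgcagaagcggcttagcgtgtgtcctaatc
Ndufaf4: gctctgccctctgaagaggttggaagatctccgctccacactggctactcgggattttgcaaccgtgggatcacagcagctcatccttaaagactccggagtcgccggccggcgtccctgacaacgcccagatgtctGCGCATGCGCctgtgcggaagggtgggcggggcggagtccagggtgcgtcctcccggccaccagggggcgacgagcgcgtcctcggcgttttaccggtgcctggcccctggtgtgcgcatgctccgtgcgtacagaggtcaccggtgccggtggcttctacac

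The motifs were those of factors known to act on nuclear genes of the respiratory chain. They were GCGCATGCG for NRF1, CCGGAAGT for ETS factors such as GABP, AAGATGGCG for YY1, TCAAGGTCA for the oestrogen-related receptors and CCAAT for NF-Y. The NRF1 letters are nearly the same on both strands, so one place can match on each, and the other motifs do not overlap one another by their letters. The Uqcrh window held an ETS match starting 11 bases before the start site and a CCAAT match. In Uqcr11 there were an NRF1 match starting 5 bases before the start site and an ETS match starting 66 bases before it. Atp5k and Ndufaf4, which moved in opposite directions, both held an NRF1 match, and Ndufa4 held none of the 5 motifs. A window was given for 74 of the 90 genes. NRF1 letters were in 12.2% of the 74 members' windows (9 genes) and in 1.95% of the windows of all 27025 genes in the table. YY1 letters were in 9.46% of the members' windows (7 genes), against 1.64% of all, and the shares for the receptors were 2.70% and 0.466%. ETS letters were in 6.76% and 4.31%, and CCAAT in 43.2% and 41.1%. Among the 14 genes with a window that rose, 3 held NRF1, 3 ETS, 0 YY1 and 9 CCAAT letters. Among the 59 with a window that did not pass, 5 held NRF1, 2 ETS, 7 YY1 and 23 CCAAT letters. A match is a description of the sequence and shows no binding.

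Complex I shifted little in its median. Of its 36 subunits, 4 rose (against 10.1% of all genes) and 0 fell (against 12.6%) by limma, with a median difference of 0.02. Every CD73+ array was above every CD73- array for 13 subunits (against 18.1% of all genes) and below for 8 (against 22.7%). By the methods' t-test with the same adjustment 7 rose (against 9.11% of all genes) and 3 fell (against 11.1%). An unadjusted limma p under 0.05 in either direction was found for 9 subunits. The core subunits in this set, which belong to the arm that transfers electrons (Ndufv1, Ndufv2, Ndufs1, Ndufs3, Ndufs7 and Ndufs8), gave 0 calls by limma, 1 unadjusted p under 0.05 and 1 fall by the methods' t-test, with differences from -0.16 to 0.15. The 4 that rose were among the 30 other genes placed in complex I by name, whose median difference was 0.03. This grouping by role, like those of the other complexes, was made after the values were seen.

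Ndufa4 had the largest difference of the Nduf genes. Its name places it in complex I, but the protein is known as a subunit of complex IV. It read 11.33, 11.28 and 11.31 in CD73+ AD-MSCs, against 10.95, 10.94 and 10.91 in CD73- AD-MSCs. The groups did not overlap, and the arrays within each lay close together. The difference was 0.37 (SE 0.0527, limma adjusted p = 0.00299). Its paralogue Ndufa4l2, known as a target of hypoxia signalling, read 5.88, 5.89 and 6.11 in CD73+ AD-MSCs, against 5.94, 5.84 and 6.36 in CD73- AD-MSCs. There the groups overlapped (difference -0.09, limma adjusted p = 0.746).

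Ndufv3, an accessory subunit beside the flavin-bearing part of complex I, read 9.93, 9.87 and 9.91 in CD73+ AD-MSCs, against 9.63, 9.64 and 9.55 in CD73- AD-MSCs. The groups were apart (difference 0.29, SE 0.0566, limma adjusted p = 0.0104), and the call was lost without CD73+ replicate 1 (limma adjusted p = 0.0506). Ndufa3, a small subunit of the membrane arm, read 11.25, 11.21 and 11.28 in CD73+ AD-MSCs, against 11.01, 10.97 and 10.91 in CD73- AD-MSCs. This probe set rose by 0.29 (limma adjusted p = 0.0124, and 0.0524 without CD73+ replicate 1), and the next brightest rose by 0.27. The third Ndufa3 probe set moved the other way, at 5.55, 5.47 and 5.40 in CD73+ AD-MSCs, against 5.76, 5.69 and 5.86 in CD73- AD-MSCs. It fell by 0.30 (limma adjusted p = 0.0229), at levels just above the median of all probe sets, 5.33, and Ndufa3 was the one member with probe sets called in both directions. Ndufb11, another subunit of the membrane arm, rose by 0.25 (SE 0.053, limma adjusted p = 0.0159) and was called in 3 of the 6 fits that left out an array, with the call lost without CD73+ replicate 1 or 2 and without CD73- replicate 2 (up to 0.0626).

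The factors that help to build complex I gave falls and no rise. Of 8 genes named Ndufaf, 0 rose and 2 fell by limma, as by the methods' t-test, against 10.1% and 12.6% of all genes by limma, and 4 had an unadjusted p under 0.05. Their median difference was -0.15, against -0.02 over all genes. Every CD73+ array was below every CD73- array for 4 of them (Ndufaf4, Ndufaf6, Ndufaf1 and Ndufaf5), against 22.7% of all genes, and above for 1 (Ndufaf8, difference 0.13), against 18.1%. Ndufaf4, which acts early in the assembly of complex I, read 9.15, 9.07 and 9.19 in CD73+ AD-MSCs, against 9.63, 9.49 and 9.44 in CD73- AD-MSCs. The highest CD73+ array stayed below the lowest CD73- array. The difference was -0.38 (SE 0.0705, limma adjusted p = 0.00886), and a dimmer probe set gave -0.22 (limma adjusted p = 0.156). Ndufaf6, which is also needed early in assembly, read 7.70, 7.68 and 7.70 in CD73+ AD-MSCs, against 7.90, 8.04 and 8.01 in CD73- AD-MSCs. The CD73+ arrays were nearly equal and all lower. The difference was -0.29 (SE 0.0599, limma adjusted p = 0.0138), and the call was lost without CD73+ replicate 1 (0.0524) or 2 (0.0558) and without CD73- replicate 2 (0.0578). Under the scaling to the poly-A controls both genes became higher, by 0.55 and 0.63.

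Complex II is also the succinate dehydrogenase of the citric acid cycle and is encoded in the nucleus alone. Its 4 genes gave 0 calls by limma (against 10.1% of all genes higher and 12.6% lower) and 1 unadjusted p under 0.05. The methods' t-test gave 1 rise and 1 fall (against 9.11% and 11.1% of all genes). Sdhd, a membrane anchor, read 9.90, 9.93 and 9.92 in CD73+ AD-MSCs, against 9.78, 9.71 and 9.73 in CD73- AD-MSCs. The groups were apart, but the difference of 0.18 did not pass (SE 0.0539, limma adjusted p = 0.0601). Sdhb, the iron-sulfur subunit, and Sdhc, the other anchor, differed by -0.05 and 0.05. Sdha, the flavin-bearing subunit, depended on the probe set. The brightest gave 10.06, 10.01 and 10.10 in CD73+ AD-MSCs, against 9.92, 9.97 and 9.92 in CD73- AD-MSCs (difference 0.11, limma adjusted p = 0.225). A second one, which may also bind related transcripts by its annotation suffix, gave 8.99, 9.14 and 9.12 in CD73+ AD-MSCs, against 8.61, 8.60 and 8.58 in CD73- AD-MSCs. That probe set rose by 0.49 (SE 0.0614, limma adjusted p = 0.00188), and of the remaining pair, both below the median level, one rose by 0.28 and the other gave -0.06.

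Complex III held the largest difference of all 90 genes. Uqcrh, the acidic hinge protein that sits between cytochromes c1 and c, read 10.48, 10.48 and 10.52 in CD73+ AD-MSCs, against 9.71, 9.65 and 9.60 in CD73- AD-MSCs. The CD73+ arrays were nearly equal and all of them stood well above the CD73- arrays. The difference was 0.84 (SE 0.0566, limma adjusted p = 0.000211), or 1.79-fold, and ranked 163 among the 1840 genes that rose. A second Uqcrh probe set read 9.53, 9.51 and 9.56 in CD73+ AD-MSCs, against 8.97, 8.91 and 8.71 in CD73- AD-MSCs. It too was higher on every CD73+ array (difference 0.67, SE 0.0779, limma adjusted p = 0.00135). Uqcr11, the smallest subunit of the complex, read 10.48, 10.44 and 10.49 in CD73+ AD-MSCs, against 10.08, 10.00 and 10.02 in CD73- AD-MSCs. The groups were clearly apart (difference 0.44, SE 0.0547, limma adjusted p = 0.0018).

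Of the 8 genes of complex III, 2 rose (against 10.1% of all genes) and 0 fell (against 12.6%) by limma. The other 6 did not pass and spanned -0.17 to 0.16. Among the core proteins, which have a structural role, and the Rieske iron-sulfur protein, Uqcrc1 differed by 0.11, Uqcrc2 by -0.17 and Uqcrfs1 by 0.16, with 2 unadjusted p-values under 0.05 and 1 rise and 1 fall by the methods' t-test. Uqcr10, a small subunit next to the Rieske protein, and Uqcrc2 were singled out after their values were seen, because their probe sets disagreed. The brightest probe set of Uqcr10 read 10.41, 10.44 and 10.42 in CD73+ AD-MSCs, against 10.38, 10.40 and 10.42 in CD73- AD-MSCs (difference 0.03, limma adjusted p = 0.799). The groups overlapped there, while its other probe sets fell by 0.35 and 0.50 (limma adjusted p = 0.00502 and 0.00101), with all CD73+ arrays below all CD73- arrays. For Uqcrc2 the brightest probe set gave a limma adjusted p of 0.0769, and the other read 10.23, 10.27 and 10.32 in CD73+ AD-MSCs, against 10.69, 10.68 and 10.54 in CD73- AD-MSCs. That one fell by 0.36 (SE 0.0646, limma adjusted p = 0.00746). Of these 3 probe sets, 1 (of Uqcr10) carries the suffix of sequence shared with other transcripts. The probe sets of Uqcrq disagreed in the other direction. Its brightest gave -0.07, 1 of its 4 probe sets was called higher and 0 lower, and their differences ran from -0.07 to 0.28.

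In complex IV, cytochrome c oxidase, 6 of 17 genes rose (against 10.1% of all genes) and 1 fell (against 12.6%), with a median difference of 0.08. The methods' t-test called 4 higher and 1 lower (against 9.11% and 11.1% of all genes). Several of its nuclear subunits exist as isoforms, one widespread and another known from muscle, heart, testis or lung. Of the widespread forms, Cox7a2, Cox8a and Cox6b1 rose. Cox7a2, the widespread form of subunit VIIa, read 11.60, 11.63 and 11.65 in CD73+ AD-MSCs, against 11.36, 11.35 and 11.31 in CD73- AD-MSCs. The groups did not overlap (difference 0.29, SE 0.0534, limma adjusted p = 0.00933), and its second probe set rose by 0.34. Cox8a, the widespread form of subunit VIII, read 11.67, 11.60 and 11.64 in CD73+ AD-MSCs, against 11.36, 11.37 and 11.41 in CD73- AD-MSCs. It was higher on every CD73+ array (difference 0.26, SE 0.054, limma adjusted p = 0.0154), and the call was lost without CD73+ replicate 1 (0.0711) and without CD73- replicate 1 (0.0514) or 2 (0.059). Cox6b1, the widespread form of subunit VIb, rose by 0.25 (limma adjusted p = 0.0244), and was called in 2 of the 6 fits that left out an array, with 0.094 without CD73+ replicate 2. Cox6c, which has no isoform pair, rose by 0.22 (limma adjusted p = 0.0245) on its brightest probe set, was called in 1 of the 6 fits that left out an array, with adjusted p up to 0.0976, and its other probe set gave -0.04. Cox6a1 (0.13, limma adjusted p = 0.191), Cox7a2l (0.08), a factor in the joining of complexes III and IV, and Cox4i1 (0.06) did not pass.

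The tissue-restricted isoforms were called in both directions. Cox6a2, the form of subunit VIa known from heart and skeletal muscle, read 7.91, 7.87 and 7.67 in CD73+ AD-MSCs, against 8.36, 8.26 and 8.22 in CD73- AD-MSCs. It was lower on every CD73+ array. The difference was -0.46 (SE 0.0802, limma adjusted p = 0.00696), the most negative of the 90 genes, a dimmer probe set gave -0.53 (limma adjusted p = 0.0206), and under the scaling to the poly-A controls it became higher by 0.47. Cox6b2, known from testis, read 5.70, 5.32 and 5.60 in CD73+ AD-MSCs, against 4.93, 5.14 and 5.03 in CD73- AD-MSCs. The groups were apart at levels around the median of all probe sets (difference 0.51, SE 0.107, limma adjusted p = 0.0155), and the call was lost without CD73+ replicate 1 (0.0539) or CD73- replicate 1 (0.0587). Cox7a1, the muscle and heart form of subunit VIIa, read 3.68, 3.84 and 3.72 in CD73+ AD-MSCs, against 3.58, 3.42 and 3.47 in CD73- AD-MSCs. The groups were apart, but these levels are far below the median probe set, and the call (difference 0.26, SE 0.0705, limma adjusted p = 0.0401) held in 1 of the 6 fits that left out an array and reached 0.135 without CD73+ replicate 2. Cox8b (-0.30, limma adjusted p = 0.287), Cox4i2 (-0.09) and Cox8c (-0.00) did not pass. The skeletal muscle markers had mean levels per array of 4.61 to 4.80 in CD73+ and 4.63 to 4.72 in CD73- AD-MSCs, and Acta1, the one that was called, rose by 0.38. Their part in the muscle isoforms' values was not tested.

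The ATP synthase moved most evenly. Of its 17 genes 5 rose (against 10.1% of all genes) and 0 fell (against 12.6%) by limma. Among genes with a mean level of at least 9, 17.7% rose and 25.1% fell. A positive difference was found for 15 of the 17 and an unadjusted p under 0.05 in either direction for 10. The methods' t-test called 7 higher and 0 lower (against 9.11% and 11.1% of all genes). Its median difference was 0.14. Every CD73+ array was above every CD73- array for 14 genes (against 18.1% of all genes) and below for 1, Atp5g1 (against 22.7%). With the prior that follows brightness 11 rose (64.7%, against 13.3% of all genes under that prior) and 1 fell (5.88%, against 16.8%). The genes of this complex are brighter than most, and shares among bright genes were not counted under that prior, nor for groups apart. By role, 3 of the 5 small membrane subunits rose (against 10.1% of all genes), with a median of 0.23. Of the 5 subunits of the catalytic head and central stalk, 2 rose (against the same share), with a median of 0.20. The 4 peripheral stalk genes, which hold the head in place, gave 0 calls by limma, 1 unadjusted p under 0.05 and 1 rise by the methods' t-test, with a median of 0.06.

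Atp5k and Atp5l encode subunits e and g, which join ATP synthase into dimers in the inner membrane. Atp5k read 10.40, 10.39 and 10.49 in CD73+ AD-MSCs, against 10.14, 9.95 and 10.08 in CD73- AD-MSCs. All CD73+ arrays were higher (difference 0.37, SE 0.0686, limma adjusted p = 0.00907), and its further probe sets were called as well (0.30 and 0.42). Atp5l read 11.25, 11.26 and 11.23 in CD73+ AD-MSCs, against 10.95, 10.84 and 10.91 in CD73- AD-MSCs. The groups were again apart (difference 0.34, SE 0.056, limma adjusted p = 0.00535). Atp5e, the epsilon subunit of the central stalk, read 10.44, 10.51 and 10.45 in CD73+ AD-MSCs, against 10.18, 10.12 and 10.14 in CD73- AD-MSCs. It was higher on every CD73+ array (difference 0.32, SE 0.0554, limma adjusted p = 0.00718). Atp5mpl, a small proteolipid of the membrane part, and Atp5a1, the alpha subunit of the catalytic head, rose by 0.23 and 0.20 (limma adjusted p = 0.0337 and 0.0412). Both calls were lost in each of the 6 fits that left out an array, with adjusted p up to 0.114 and 0.149, though the further probe sets of Atp5a1 were called too (0.26 and 0.40).

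The c-ring is the rotor that protons turn, and its 3 genes, Atp5g1, Atp5g2 and Atp5g3, encode the same mature protein. None was called by limma or by the methods' t-test, and 2 had an unadjusted limma p under 0.05, while with the prior that follows brightness 2 were higher and 1 lower. Atp5g1 read 10.30, 10.33 and 10.28 in CD73+ AD-MSCs, against 10.53, 10.51 and 10.36 in CD73- AD-MSCs. Here the CD73+ arrays were the lower ones (difference -0.16, limma adjusted p = 0.133), with the sign reversed under the scaling to the poly-A controls (0.76). Atp5g2 read 11.50, 11.56 and 11.60 in CD73+ AD-MSCs, against 11.38, 11.46 and 11.40 in CD73- AD-MSCs, and Atp5g3 read 12.30, 12.29 and 12.19 in CD73+ AD-MSCs, against 12.13, 12.15 and 12.13 in CD73- AD-MSCs. Both were higher on all CD73+ arrays, by 0.14 and 0.12 (limma adjusted p = 0.156 and 0.196).

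**Figure D2:**
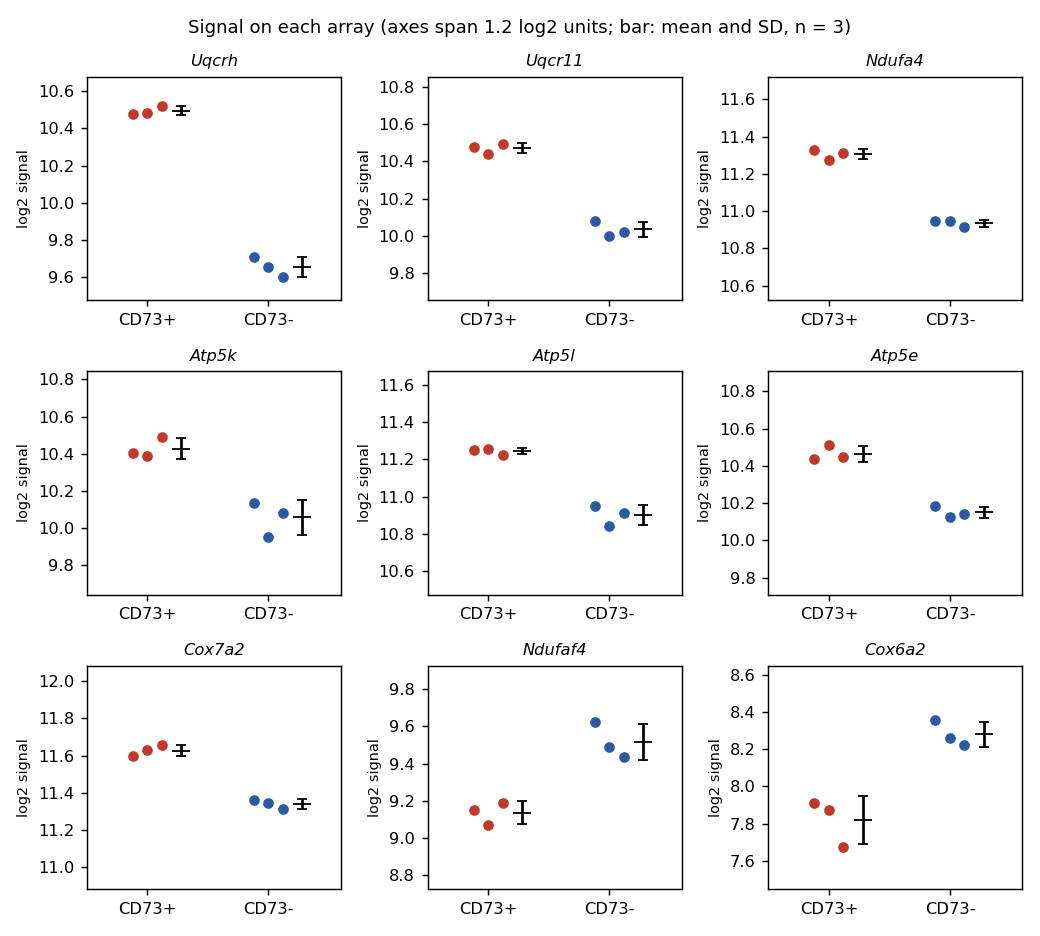
Log2 level (y axis) on each array for the 9 genes called with all arrays and without any single one, with 3 CD73+ arrays left of 3 CD73- arrays in each panel and a bar for each group's mean and SD. The 7 genes that were higher and the 2 that were lower show no overlap between the groups, from 10.48 to 10.52 in CD73+ and 9.60 to 9.71 in CD73- AD-MSCs for Uqcrh, and from 7.67 to 7.91 in CD73+ and 8.22 to 8.36 in CD73- AD-MSCs for Cox6a2.

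The complexes were also followed array by array. For each gene the deviation from its mean over the 6 arrays was taken, and the median over a complex was plotted per array. For the ATP synthase this median was 0.07, 0.08 and 0.08 on the CD73+ arrays, against -0.06, -0.05 and -0.08 on the CD73- arrays. No array of one group crossed into the other. For the complex I assembly factors it was -0.12, -0.07 and -0.03 on the CD73+ arrays, against 0.07, 0.03 and 0.03 on the CD73- arrays, again apart. Complexes II, III and IV had positive medians on the CD73+ arrays and negative ones on the CD73- arrays. The complex I subunits overlapped, at -0.01, 0.00 and 0.05 on the CD73+ arrays, against 0.01, -0.00 and -0.05 on the CD73- arrays. The median over all genes lay between -0.02 and 0.02 on every array.

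**Figure D3:**
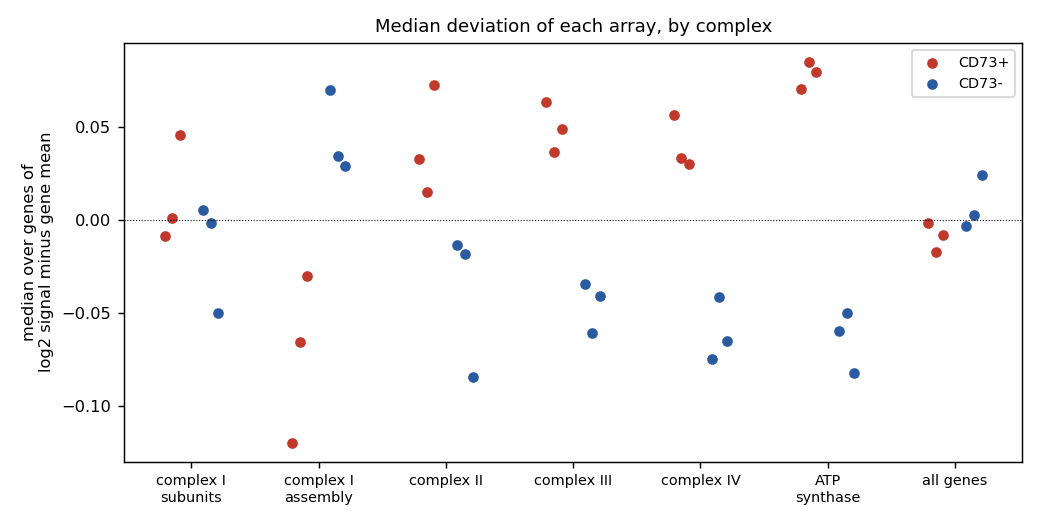
Median deviation from the gene mean (y axis, log2) over the genes of each complex on each array, with the 3 CD73+ arrays left of the 3 CD73- arrays. The ATP synthase lies above 0 on the CD73+ arrays (0.07 to 0.08) and below it on the CD73- arrays (-0.08 to -0.05), while the complex I subunits overlap.

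Several probe sets of a gene can read different ends or forms of its transcript, or related copies. Of the 90 genes, 39 had a single probe set and 32 had several of which 0 passed. In 7 genes all probe sets passed in one direction, in 1 (Ndufa3) they passed in both, in 2 the brightest alone passed and in 1 the brightest with some others. In the remaining 8 (Atp5d, Atp5j2, Ndufb2, Ndufc2, Sdha, Uqcr10, Uqcrc2 and Uqcrq) only probe sets other than the brightest passed, and these genes are not in the counts of 17 and 3. Atp5d, the delta subunit of the central stalk, was near the threshold on its brightest probe set (0.20, limma adjusted p = 0.0725) and rose by 0.24 on the other (limma adjusted p = 0.0187). Ndufb4 had only a dim probe set of its own, and 8 symbols, among them Ndufa11 and Ndufs6, were present only on probe sets shared with other genes and were not read.

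**Figure D4:**
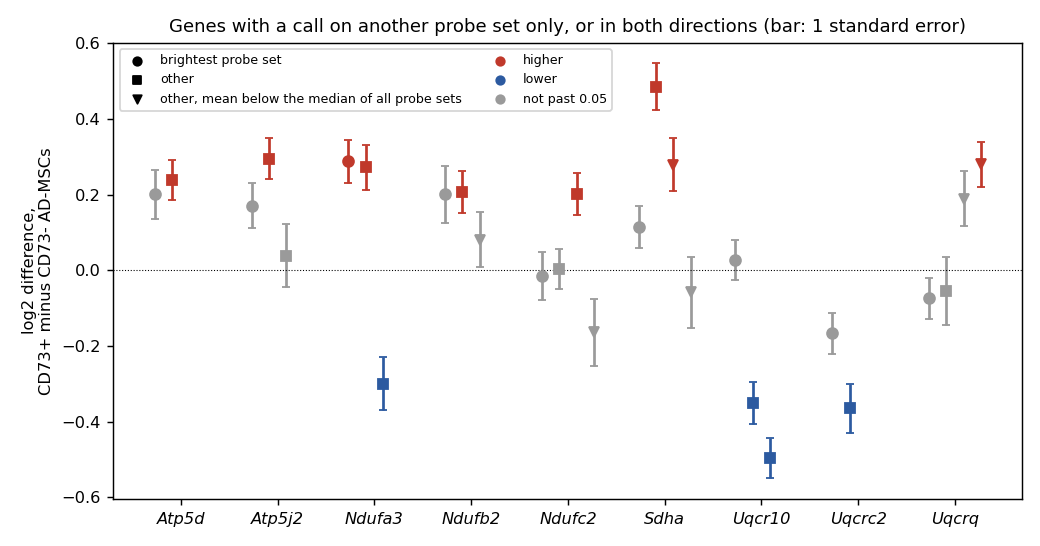
Log2 difference (y axis, CD73+ minus CD73- AD-MSCs) of every probe set of the genes in which only probe sets other than the brightest passed, or in which calls ran in both directions, with bars of 1 standard error, a circle for the brightest probe set, squares for the others, triangles for those below the median level, and colours for calls (red higher, blue lower). For Uqcr10 the brightest probe set gave 0.03 and the others -0.35 and -0.50.

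Mitochondrial DNA encodes 13 subunits of these complexes, and 1 of them, ND5 of complex I, was read here. It was at 12.98, 13.02 and 13.12 in CD73+ AD-MSCs, against 12.80, 12.88 and 12.77 in CD73- AD-MSCs. The CD73+ arrays were all higher (difference 0.23, SE 0.0641, limma adjusted p = 0.0463), but the call was lost in each of the 6 fits that left out an array, with adjusted p up to 0.12.

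Genes that act around the complexes were called in both directions. Among 43 measured assembly factors not named Ndufaf, 2 rose (against 10.1% of all genes) and 5 fell (against 12.6%), with a median difference of -0.05, and the share that fell was near that of all genes. Sdhaf4, which helps to assemble complex II, rose by 0.36 and Pet100, which acts in complex IV assembly, by 0.29 (limma adjusted p = 0.00568 and 0.0134). Timmdc1, a membrane factor for complex I, read 7.77, 7.88 and 7.73 in CD73+ AD-MSCs, against 8.23, 8.25 and 8.18 in CD73- AD-MSCs. It was lower on every CD73+ array (difference -0.42, SE 0.0627, limma adjusted p = 0.00361). Cox17, a copper chaperone for complex IV, fell by 0.33 (limma adjusted p = 0.0263), but this rested on the choice of probe set: read from one without a suffix for shared sequence it gave 0.02. Of 12 genes of ubiquinone synthesis or function, 1 rose and 4 fell (median -0.18), against the same shares of all genes. The methods' t-test called 0 higher and 2 lower. Coq7, a hydroxylase of the synthesis pathway, rose by 0.33 (limma adjusted p = 0.0215), and Coq10b and Coq5 fell by 0.39 and 0.34 (limma adjusted p = 0.00236 and 0.0223). Without CD73+ replicate 2 the calls of Pet100 (0.0565), Cox17 (0.0833), Coq7 (0.0662) and Coq5 (0.0571) were lost, and some were lost without other arrays too.

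Nuclear regulators of mitochondrial gene expression held more falls than rises. Of 23 measured, 1 rose and 11 fell, against 10.1% higher and 12.6% lower among all genes, with a median of -0.21. Every CD73+ array was below every CD73- array for 16 (against 22.7% of all genes) and above for 1 (against 18.1%). The list was drawn up with earlier results of these data known. Gabpb1, a subunit of the GABP factor that acts on many respiratory genes, read 7.46, 7.54 and 7.24 in CD73+ AD-MSCs, against 8.15, 8.23 and 8.01 in CD73- AD-MSCs. All CD73+ arrays were lower (difference -0.71, SE 0.096, limma adjusted p = 0.00244). Its partner Gabpa rose by 0.25 on the brightest probe set (limma adjusted p = 0.0185), lost the call without CD73+ replicate 1 (0.0728) or 2 (0.0777) and without CD73- replicate 2 (0.0722), and gave -0.06 as the mean of its probe sets. Tefm, the elongation factor of mitochondrial transcription, read 7.18, 7.27 and 7.10 in CD73+ AD-MSCs, against 7.73, 7.70 and 7.63 in CD73- AD-MSCs. It was lower on every CD73+ array (difference -0.50, SE 0.0667, limma adjusted p = 0.00232). Scaled to the poly-A controls, Gabpb1, Tefm and Timmdc1 became higher, by 0.21, 0.43 and 0.50. Tfam, which packages and transcribes mitochondrial DNA and was singled out after its values were seen, fell by 0.37 (limma adjusted p = 0.00702). Nrf1 (-0.20, limma adjusted p = 0.0838), whose letters were sought in the promoters, and the coactivator Ppargc1a (0.21, limma adjusted p = 0.391) did not pass.

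The remaining lists held few calls. Among 10 carriers and porins, 1 rose (against 10.1% of all genes) and 2 fell (against 12.6%), with a median of 0.10. The ADP/ATP carrier Slc25a5 rose by 0.21, and Slc25a25, a carrier of ATP-Mg and phosphate, and the porin Vdac3 fell by 0.22 and 0.27 (limma adjusted p = 0.0303, 0.0473 and 0.0136). Each of these 3 calls was lost without CD73+ replicate 1 (0.0935, 0.131 and 0.0588), and those of Slc25a5 and Slc25a25 without other arrays too. Of 10 electron carriers and dehydrogenases that feed ubiquinone, 0 passed by limma or by the methods' t-test and 2 had an unadjusted limma p under 0.05. In the list of uncoupling and antioxidant genes, Sod2, the manganese superoxide dismutase of the matrix, was the one of 10 that rose (0.27, limma adjusted p = 0.017), which was lost without CD73+ replicate 1 (0.0733) or 2 (0.0681) and without CD73- replicate 1 (0.0524). The plot of related genes shows the lists side by side.

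**Figure D5:**
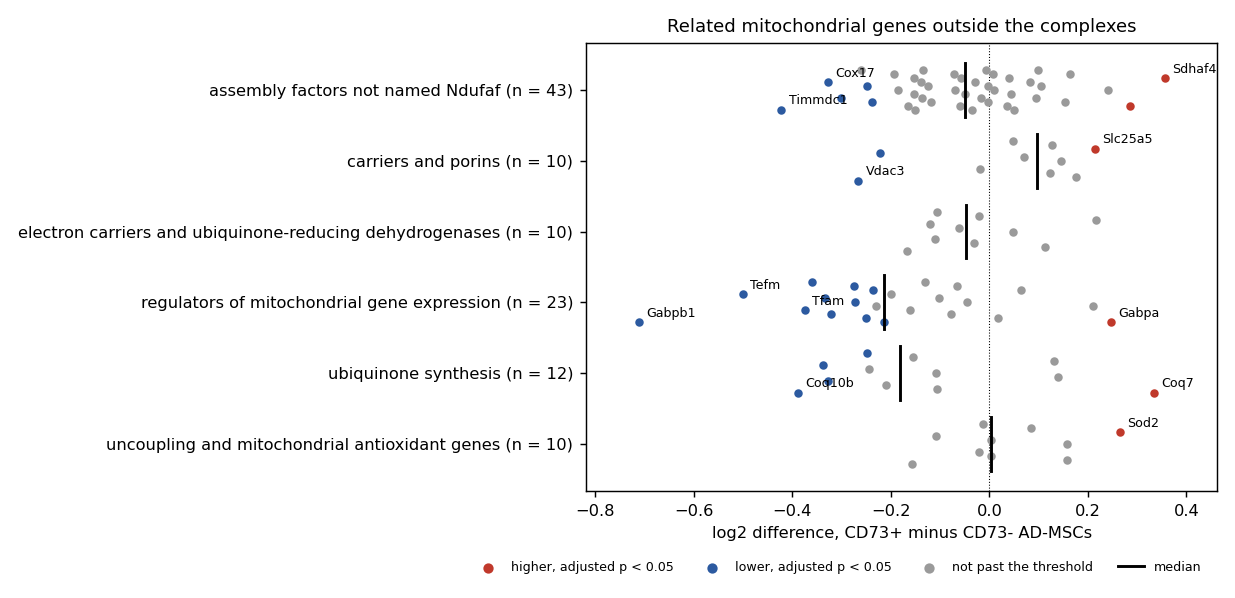
Log2 difference (x axis, CD73+ AD-MSCs minus CD73- AD-MSCs) for each measured gene of 6 related lists, with calls coloured (red higher, blue lower, limma adjusted p under 0.05), others grey and the median as a black bar. The regulators of mitochondrial gene expression lie furthest to the left, with 11 of 23 lower and a median of -0.21.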

How the data were processed

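The authors deposited log2 expression values of 45101 probe sets on 6 Affymetrix mouse arrays. The submitters' processing notes name RMA, whose version is not given in the sources used here. RMA makes the distributions of the arrays nearly alike (array medians 5.28 to 5.37), which takes away any change common to most genes, and it compresses small ratios. Precision is limited by having 3 arrays per group. Of the deposited columns of samples, 0 were left unused. The values were used as deposited. The 64 control probe sets were kept apart. For the other 45037, lmFit and eBayes of limma 3.58.1 (R 4.3.3) compared the 2 groups with no block and no filter. The p-values were adjusted by Benjamini and Hochberg's method over these 45037, with 0.05 as the threshold. The steps were tested on simulated data. Python 3.11.15 and matplotlib 3.10.9 made the counts and plots. In the platform annotation 34945 probe sets have 1 symbol, 932 several and 9160 none, and 34741 of the first kind were matched by Entrez ID, with 0 symbols changed. The brightest probe set stood for a gene.

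The members and the gene lists were chosen with earlier results of these data known. In each complex at most 3 called genes per direction, taken by size, were named (or the 2 with the smallest p), with the isoform families Cox4i, Cox6a, Cox6b, Cox7a, Cox8, Ndufa4 and the c-ring genes, members called in both directions, and up to 2 genes per direction in each related list. Ndufb11, Sdhb, Sdhc, Uqcrc1, Uqcrfs1, Uqcrc2, Uqcr10, Uqcrq, Cox6c, Atp5mpl, Atp5a1, Atp5d, the other assembly factors of complex I, Tfam, Nrf1, Ppargc1a and Acta1 were named after their values were seen. Promoter windows came from RefSeq (GRCm38.p6) and were given for 74 members. The alternatives tried were a replicate block, 4 other scalings, a filter on dim probe sets, other priors, array weights, the methods' t-test, other rules for several probe sets, limits on the difference and the omission of each array. That t-test is a one-way ANOVA applied here to each probe set, a use that the paper does not state.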

Additional observations from a re-analysis of the deposited data

How the results depend on the processing

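The number of members that rose, 17 with all arrays, was 7 to 13 when single arrays were left out, 11 after median centring, 32 with a prior that follows brightness, 90 after scaling to the poly-A controls and 2 with a further limit of 0.5 on the difference. The number that fell, 3 with all arrays, was 2 to 3 without single arrays, 10 after leaving out dim probe sets, 14 with that prior, 5 with array weights, 8 by the methods' t-test, 6 with the mean of the probe sets, and 0 after scaling to the poly-A controls or with the limit of 0.5. The median difference over the members, 0.07, was 0.06 to 0.08 without single arrays, 0.039 after median centring, 0.0919 after cyclic loess and 0.998 after scaling to the poly-A controls. That scaling called 44707 probe sets higher and 33 lower, and without single arrays 2794 to 4199 rose and 2525 to 3907 fell, with both lowest counts without CD73+ replicate 1. It reversed the sign of Atp5g1 (0.76), Coq10b (0.54), Coq5 (0.59), Cox17 (0.60), Cox4i2 (0.83), Cox6a2 (0.47), Cox8b (0.62), Cox8c (0.92), Gabpb1 (0.21), Ndufa4l2 (0.84), Ndufaf4 (0.55), Ndufaf6 (0.63), Slc25a25 (0.70), Tefm (0.43), Timmdc1 (0.50) and Vdac3 (0.66). Cox17 gave 0.022 on a probe set without suffix and Gabpa -0.0614 as the mean of its probe sets. The cause of these changes was not tested. Dim probe sets such as that of Cox7a1, and the 3 arrays per group, limit what could be called.

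No pairing by replicate number was seen: same-numbered arrays deviated with correlations of -0.14, 0.03 and -0.14 over the probe sets, and not every array correlated best with its own number. The highest values were 0.17, for CD73+ replicate 1 with CD73- replicate 3, and 0.13, for CD73+ replicate 3 with CD73- replicate 1. With 3 arrays per group, such correlations cannot settle whether the samples were paired. With the replicate number as a block 8 members rose and 2 fell, all of them among the 17 and 3, and 2713 probe sets fell.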
